A study of Mus musculus with 12 samples.

Results

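The genes described here are 10 markers of Kupffer cells and other macrophages in mouse liver, namely Marco, Adgre1, Clec4f, Vsig4, Timd4, Cd5l, C1qa, C1qb, C1qc and Csf1r. Each was read from a probe set, a group of array probes for a transcript, to which the array annotation gives exactly 1 gene symbol. All 10 were found, each with a single such probe set, among 19937 genes with a probe set of that kind. Livers came from C57BL/6 mice that the sample labels describe as 6 weeks old, and the 4 groups of 3 arrays each had received saline, Albulin, Insulin-Apo or insulin glargine. Every insulin was given under the skin at 55 nmol/kg, and livers were taken 6 h later. Albulin is insulin fused to albumin and Insulin-Apo is insulin fused to apolipoprotein A-I, both recombinant proteins that the methods say were made in bacteria. Insulin glargine is a long-acting insulin analogue sold as a drug, and the methods do not say how it was made. All mice were wild type, so no allele separates the groups, and the arrays of insulin glargine are described in the labels only. The sources used here do not say that each array holds a different mouse, so p values measure the spread between arrays, which may be technical.

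Kupffer cells are the resident macrophages of the liver. They sit in the sinusoids, where they take up particles, lipoproteins, old red cells and microbes from portal blood through scavenger and complement receptors. Their survival depends on the receptor for colony stimulating factor 1, encoded by Csf1r, and their identity on transcription factors that include PU.1, Id3 and Spi-C. Marco, Timd4, Vsig4 and Clec4f encode receptors of these cells, Adgre1 encodes a surface antigen used to stain macrophages, Cd5l a secreted scavenger protein, and C1qa, C1qb and C1qc the chains of C1q, the first component of the classical complement pathway. Whole liver was measured, so fewer Kupffer cells and less RNA per Kupffer cell cannot be told apart in any value below.

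The sequences upstream of 3 of the genes are shown because Marco was the only marker called in a comparison of 2 treatments, and because C1qb and C1qc lie next to each other and encode chains of the same protein. In the RefSeq annotation of GRCm38.p6, C1qb, C1qc and C1qa follow each other on chromosome 4 with 0 annotated genes between them. RefSeq promoter entries of that build were found for 7 of the 10 markers, and the 250 bases before the annotated start are printed 5′ to 3′ in the direction of the gene. Capitals mark GAGGAA or, on the opposite strand, TTCCTC, the core letters bound by PU.1, the macrophage transcription factor encoded by Spi1. The Marco sequence is chr1:120505025-120505274, that of C1qb is chr4:136886201-136886450 and that of C1qc is chr4:136892915-136893164, all on the minus strand.
Marco: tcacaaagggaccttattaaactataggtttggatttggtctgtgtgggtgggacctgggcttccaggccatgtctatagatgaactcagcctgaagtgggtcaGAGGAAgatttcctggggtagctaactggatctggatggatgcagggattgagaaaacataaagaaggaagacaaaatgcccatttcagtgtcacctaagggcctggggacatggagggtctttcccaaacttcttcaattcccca
C1qb: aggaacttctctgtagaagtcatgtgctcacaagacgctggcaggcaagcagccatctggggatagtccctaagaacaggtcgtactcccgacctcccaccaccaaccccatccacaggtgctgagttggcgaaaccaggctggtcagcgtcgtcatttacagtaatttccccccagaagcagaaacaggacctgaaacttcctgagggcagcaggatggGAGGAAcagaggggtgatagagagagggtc
C1qc: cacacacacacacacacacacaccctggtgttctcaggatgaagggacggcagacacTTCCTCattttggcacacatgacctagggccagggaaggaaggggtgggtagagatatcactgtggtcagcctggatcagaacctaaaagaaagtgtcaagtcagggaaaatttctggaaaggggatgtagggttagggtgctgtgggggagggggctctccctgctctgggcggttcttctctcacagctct
The core stood 146 bases before the start of Marco, 30 before that of C1qb and 193 before that of C1qc. It was also found in the windows of Cd5l and Vsig4 and not in those of Clec4f and Timd4, so 5 of 7 windows held it. Of all 32851 windows of this length in the table, 23.3% held these letters on either strand. A match describes the sequence only and was not tested for binding.

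Array medians lay between 7.6953 and 7.7703 on the log2 scale. The arrays of insulin glargine agreed less with each other, with a mean correlation within the group of 0.9898 to 0.9932, than those of the other groups, with 0.9954 to 0.9968. In the mean over the markers, insulin glargine replicates 2 and 3 lay furthest from their group mean, by 0.33 and -0.33. Next were Insulin-Apo replicates 1 and 2, by 0.23 and -0.23. Insulin-Apo replicate 2 and insulin glargine replicate 3 were each lowest of their group in 8 of 10 markers. Insulin glargine replicate 2 was highest of its group in all 10, and Insulin-Apo replicate 1 in 8. Beside the results, values are given mainly without the low arrays or Insulin-Apo replicate 3, with some for other arrays left out. Hepatocyte markers had a mean level of 14.57 to 14.62 in every array, close to the highest deposited value of 15.0031, so these probe sets leave little room for a rise. Among them Fgb, a chain of fibrinogen, passed the F test described below, with differences of 0.26 between Albulin and saline and -0.31 between insulin glargine and Albulin. A probe set was called changed where the B statistic of limma, the log odds of a difference, was over 0. Adjusted p values follow the Benjamini-Hochberg method over all probe sets tested. Differences are on the log2 scale, and levels of different probe sets were not compared with each other.

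All 10 markers lay in the upper part of each array. Their 120 values ran from 7.85 to 12.71, none was below the median of its array, and all 10 passed the filter on dim probe sets. The plot of the markers by array shows each value.

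**Figure D1:**
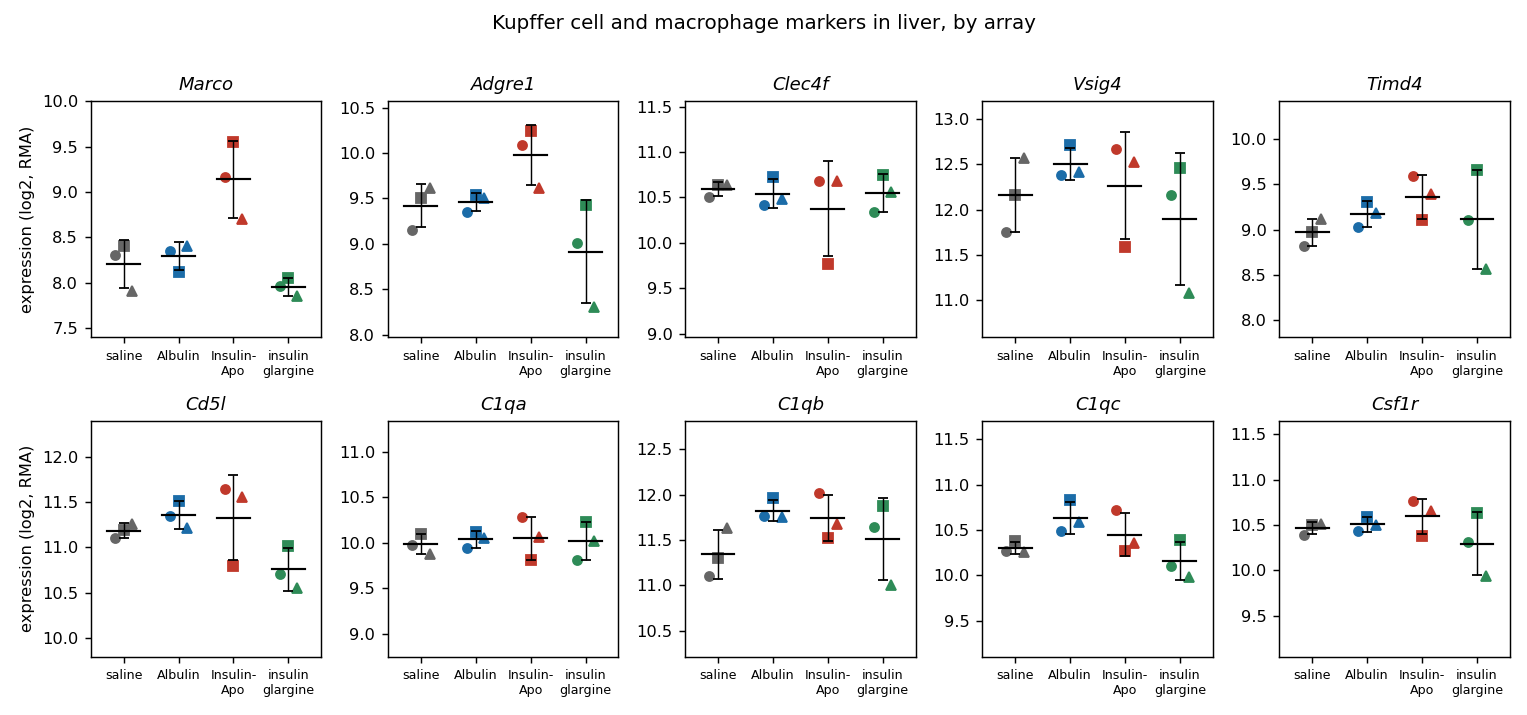
Expression (log2, RMA) of the 10 markers in the 4 groups. Circles, squares and triangles are replicates 1, 2 and 3, horizontal lines are group means and error bars are SD (n = 3), and every panel spans the same log2 range. Marco of Insulin-Apo sits at 8.70 to 9.55, above all other Marco values, and replicate 2 of Insulin-Apo is the lowest square of its group in Clec4f, Vsig4 and Cd5l.

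Marco, a scavenger receptor that binds bacteria and modified lipoproteins, was the marker with the clearest difference. After saline its level was 8.31, 8.40 and 7.91, and after Insulin-Apo it was 9.17, 9.55 and 8.70. After Albulin it was 8.35, 8.12 and 8.41, and after insulin glargine 7.97, 8.05 and 7.85. The Insulin-Apo arrays lay above every array of the other groups. Insulin glargine also lay below Albulin without overlap, at -0.33 (standard error 0.18, adjusted p = 0.333, limma), which was not called. Saline overlapped both. Marco rose after Insulin-Apo by 0.93 against saline (standard error 0.19, adjusted p = 0.0239, limma), or 1.91-fold. It was lower after insulin glargine than after Insulin-Apo by 2.27-fold, a log2 difference of -1.18 (standard error 0.18, adjusted p = 0.00136, limma). Against Albulin the Insulin-Apo arrays were also higher without overlap, but the difference of Albulin minus Insulin-Apo, -0.85 (standard error 0.19, adjusted p = 0.106, limma), was not called. Without Insulin-Apo replicate 3 it was -1.06 and was called (adjusted p = 0.0387, limma). The differences of Albulin and of insulin glargine from saline were 0.09 (standard error 0.19) and -0.25 (standard error 0.18), neither of which was called. The call against insulin glargine held in all 22 alternative analyses, with differences of -1.40 to -0.98. The call against saline was lost in 10 of 20, among them the fits without any 1 of the 9 arrays other than Insulin-Apo replicate 3, with differences of 0.73 to 1.15 and adjusted p values of 0.00352 to 0.07 over the alternatives. Without Insulin-Apo replicate 2 it was 0.73 (adjusted p = 0.0592).

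Adgre1, an adhesion receptor used to identify mouse macrophages, had the same highest and lowest group. Its level was 9.15, 9.50 and 9.61 after saline and 9.35, 9.54 and 9.50 after Albulin. It was 10.09, 10.24 and 9.61 after Insulin-Apo and 9.01, 9.43 and 8.30 after insulin glargine. Insulin-Apo and insulin glargine did not overlap, whereas saline reached into both. Adgre1 differed among the 4 treatments by the moderated F test (adjusted p = 0.0471, limma), as did Marco (adjusted p = 0.00384, limma). Only 1 marker passed this test without the filter, with arrays centred on their medians or with repeated quantile normalization. Between insulin glargine and Insulin-Apo the difference was -1.07 (standard error 0.24, adjusted p = 0.0121), with B of -0.47, under the threshold of a call. The difference of Insulin-Apo from saline was 0.56 (standard error 0.16, adjusted p = 0.0797), also not called. Without insulin glargine replicate 3, the array with the lowest value, the difference from Insulin-Apo was -0.76 (adjusted p = 0.0202), and without Insulin-Apo replicate 2 it was -0.94 (adjusted p = 0.0565). Without Insulin-Apo replicate 3, the lowest array of its group, Adgre1 was called in 3 comparisons. Insulin-Apo was then higher than saline by 0.74 (adjusted p = 0.00982, limma), Albulin minus Insulin-Apo was -0.70 (adjusted p = 0.0698), and insulin glargine minus Insulin-Apo was -1.25 (adjusted p = 0.00987). The difference of insulin glargine from saline was -0.51 with insulin glargine replicate 3 and -0.20 without it, called in neither fit. It went down to -0.77 with another array left out.

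Timd4, a receptor for phosphatidylserine on dying cells that marks long-lived resident Kupffer cells, was 8.82, 8.97 and 9.12 after saline and 9.03, 9.31 and 9.18 after Albulin. It was 9.59, 9.11 and 9.39 after Insulin-Apo, and 9.11, 9.66 and 8.57 after insulin glargine, the group with the widest spread. The groups overlapped, and the difference of Insulin-Apo from saline was 0.39 (standard error 0.12, adjusted p = 0.114, limma). Without Insulin-Apo replicate 2 it was 0.52 (adjusted p = 0.0477), still not called by B. The difference of insulin glargine from saline was 0.14 with insulin glargine replicate 3 and 0.41 without it, called in neither fit. Without insulin glargine replicate 2 it was -0.13.

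Vsig4, a complement receptor that captures opsonized particles, varied more among arrays of a group than among treatments. It was 11.75, 12.16 and 12.57 after saline, 12.38, 12.71 and 12.42 after Albulin, 12.67, 11.59 and 12.53 after Insulin-Apo, and 12.16, 12.46 and 11.08 after insulin glargine. All groups overlapped with saline, and its F test had an adjusted p of 0.649. Its difference of Insulin-Apo from saline was 0.11 with Insulin-Apo replicate 2 and 0.44 without it, and that of insulin glargine was -0.26 with insulin glargine replicate 3 and 0.15 without it, none of them called. With other single arrays left out, these differences went down to -0.098 and -0.54. Clec4f, a lectin restricted to Kupffer cells in mice, was the steadiest receptor apart from 1 array. It was 10.50, 10.64 and 10.64 after saline, 10.42, 10.72 and 10.48 after Albulin, 10.68, 9.77 and 10.68 after Insulin-Apo, and 10.34, 10.75 and 10.56 after insulin glargine. Its difference of Insulin-Apo from saline was -0.22 (standard error 0.20) with Insulin-Apo replicate 2 and 0.09 (standard error 0.10) without it, so the sign rested on that array.

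The secreted proteins showed small differences with another order of groups. Cd5l, which Kupffer cells release into plasma, was 11.10, 11.19 and 11.26 after saline and 11.35, 11.51 and 11.21 after Albulin. It was 11.64, 10.79 and 11.55 after Insulin-Apo and 10.71, 11.01 and 10.55 after insulin glargine. All insulin glargine arrays lay below all saline and Albulin arrays, with differences of -0.43 (standard error 0.19, adjusted p = 0.196) from saline and -0.60 (standard error 0.19, adjusted p = 0.0712) from Albulin, neither called. With Insulin-Apo replicate 2 left out of the fit, the difference from Albulin was still -0.60, its standard error was 0.11 and it was called (adjusted p = 0.00704). In the same fit the difference of insulin glargine from Insulin-Apo was called at -0.84 (adjusted p = 0.00285, limma), where it had been -0.57 (adjusted p = 0.0751) and not called with that array. That of Insulin-Apo from saline was 0.14 with the array and 0.41 without it (adjusted p = 0.0635), called in neither fit. Without Insulin-Apo replicate 1 it was -0.017.

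Of the 3 chains of C1q, C1qb and C1qc had positive differences from saline after Albulin, while C1qa was near 0. C1qb was 11.10, 11.30 and 11.63 after saline and 11.76, 11.96 and 11.75 after Albulin. It was 12.02, 11.52 and 11.68 after Insulin-Apo and 11.64, 11.88 and 11.01 after insulin glargine. C1qc was 10.27, 10.38 and 10.26 after saline, 10.49, 10.83 and 10.59 after Albulin, 10.72, 10.27 and 10.36 after Insulin-Apo, and 10.10, 10.39 and 9.98 after insulin glargine. Both lay above saline in all 3 Albulin arrays, by 0.48 for C1qb (standard error 0.15, adjusted p = 0.0946) and 0.33 for C1qc (standard error 0.12, adjusted p = 0.158), and neither was called. C1qc of insulin glargine lay below Albulin without overlap, with a difference of -0.47 (standard error 0.13, adjusted p = 0.0443) that B did not call. C1qa was nearly level, at 9.98, 10.10 and 9.88 after saline, 9.94, 10.12 and 10.05 after Albulin, 10.28, 9.81 and 10.06 after Insulin-Apo, and 9.81, 10.23 and 10.02 after insulin glargine. Its 6 differences were between -0.03 and 0.07. Without Insulin-Apo replicate 2 the differences of Insulin-Apo from saline were 0.19 for C1qa and 0.24 for C1qc, against 0.07 and 0.15 with it. For C1qb the difference of insulin glargine from saline was 0.17 with insulin glargine replicate 3 and 0.42 without it. Without insulin glargine replicate 2 it was -0.019. For C1qa, the difference of Insulin-Apo from saline was -0.049 without Insulin-Apo replicate 1. None of these was called.

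Csf1r, the receptor on which macrophage survival depends, was 10.39, 10.50 and 10.51 after saline and 10.43, 10.59 and 10.50 after Albulin. It was 10.76, 10.38 and 10.65 after Insulin-Apo and 10.31, 10.63 and 9.94 after insulin glargine. The groups overlapped in every comparison, and the differences from saline were 0.04 (standard error 0.09) for Albulin, 0.13 (standard error 0.09) for Insulin-Apo and -0.17 (standard error 0.14) for insulin glargine. None was called. Without Insulin-Apo replicate 2 that of Insulin-Apo was 0.24 (adjusted p = 0.189, limma), and without insulin glargine replicate 3 that of insulin glargine was 0.00, so both values rested in part on 1 array. With other single arrays left out, they went down to 0.046 and -0.34.

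As a set, few markers were called in any comparison. Against saline, 1 of 10 was called after Insulin-Apo, where 2.14% of all probe sets were called, and 0 of 10 after Albulin, where 2.41% were. After insulin glargine it was 0 of 10, beside 4.84% of all probe sets. Among the insulins, 1 of 10 was called between insulin glargine and Insulin-Apo (4.84% of all), 0 between insulin glargine and Albulin (4.35%) and 0 between Albulin and Insulin-Apo (0.639%). At an unadjusted p under 0.05, limma gave 2 markers for Albulin against saline (18.1% of all probe sets), 4 for Insulin-Apo against saline (17.4%) and 1 for insulin glargine against saline (22.5%). By the same limit, 3 were given for insulin glargine against Albulin (20.9%), 4 against Insulin-Apo (23.5%) and 2 for Albulin against Insulin-Apo (13.5%). When a call needed only an adjusted p under 0.05, 1 marker, C1qc, was counted between insulin glargine and Albulin (8.94% of all) and 2, Marco and Adgre1, between insulin glargine and Insulin-Apo (10.8%). The F test called 2 of 10, beside 13.3% of all. Groups without overlap were counted next, in the direction found among the markers. After Albulin 2 markers (C1qb and C1qc) lay above saline in all arrays, beside 11.6% of all probe sets, and after Insulin-Apo 1 (Marco) did, beside 10.4%. After insulin glargine 1 (Cd5l) lay below saline (13.1% of all), 3 (Marco, Cd5l and C1qc) below Albulin (12.3%) and 2 (Marco and Adgre1) below Insulin-Apo (12.7%). Marco and Adgre1 after Albulin lay below Insulin-Apo, 2 of 10 beside 9.02%. These shares of 10 genes were not tested against the background. Saline arrays enter 3 of these comparisons, so they are not independent of each other. The count for Insulin-Apo against saline moved with single arrays, from 0 without any other array of that fit to 2 without Insulin-Apo replicate 3.

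The median of the 10 differences from saline was 0.13 for Albulin, 0.15 for Insulin-Apo and -0.16 for insulin glargine, beside medians over all probe sets of 0.00, -0.02 and 0.00. Single arrays moved these values. Without Insulin-Apo replicate 2 the median of Insulin-Apo was 0.42, and without insulin glargine replicate 3 that of insulin glargine was -0.02. Both of these arrays were the low ones of their groups. Medians without the high arrays, Insulin-Apo replicate 1 and insulin glargine replicate 2, are not given here. The plot of differences gives each marker with its standard error.

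**Figure D2:**
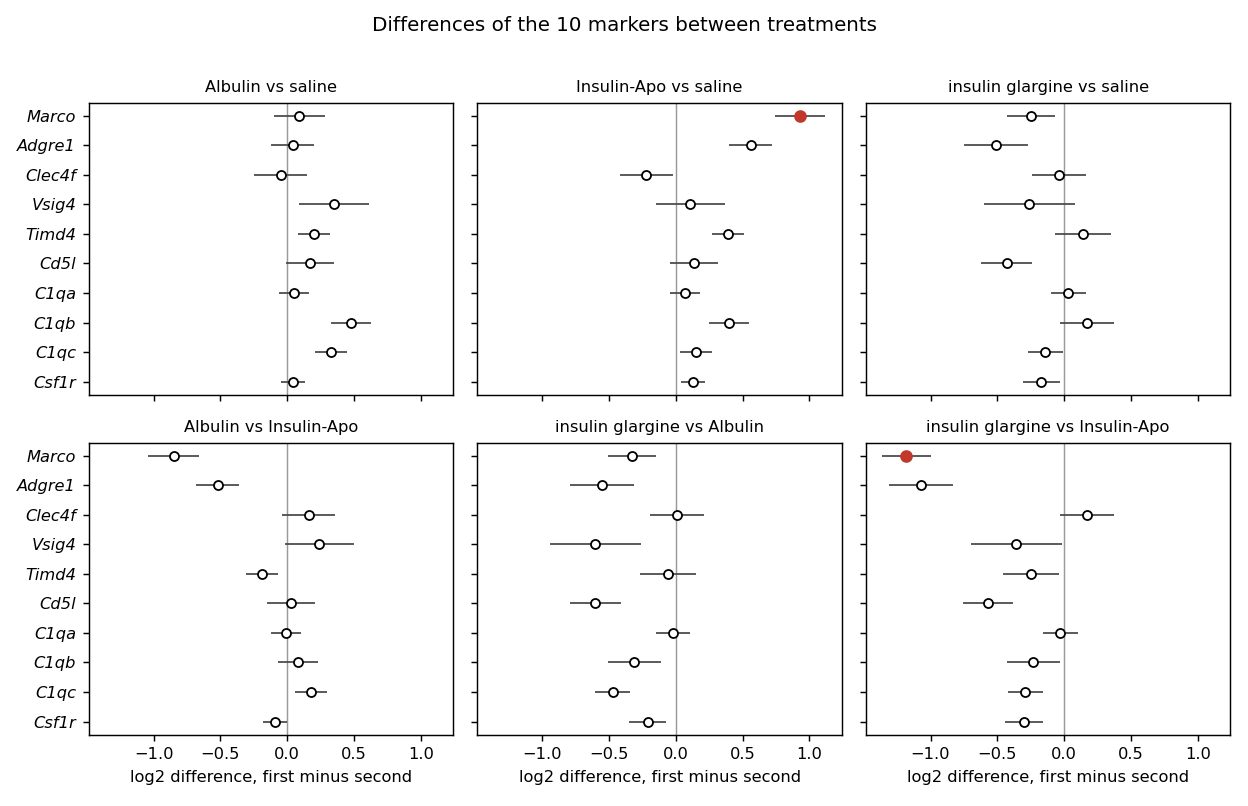
Log2 differences of the 10 markers in the 6 comparisons, first treatment minus second. Points are limma estimates, bars are 1 standard error, and filled points were called by B over 0. The filled points are Marco after Insulin-Apo against saline (0.93) and Marco after insulin glargine against Insulin-Apo (-1.18).

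Within groups, most markers were high or low in the same arrays, with Marco as an exception in more than 1 array. The values described here are deviations of an array from its group mean. Vsig4 deviated by -0.67, Clec4f by -0.61 and Cd5l by -0.54 in Insulin-Apo replicate 2, the array in which Marco deviated by 0.41 and Adgre1 by 0.26. Marco deviated by -0.29 in saline replicate 3, -0.17 in Albulin replicate 2 and -0.44 in Insulin-Apo replicate 3. In the same 3 arrays Vsig4 deviated by 0.41, 0.21 and 0.27. In insulin glargine replicate 3, Vsig4 deviated by -0.82, Adgre1 by -0.61, Timd4 by -0.54 and C1qb by -0.50, and Marco by -0.10. Insulin glargine replicate 2 was the highest of its group in all 10 markers, and Insulin-Apo replicate 1 in 8. Over the 12 arrays the deviations of Timd4 and Csf1r had a Pearson correlation of 0.98 and those of Vsig4 and C1qb of 0.94. Those of Marco had correlations of -0.67 with Clec4f and -0.58 with Cd5l. Insulin-Apo replicate 2 holds large deviations of Marco, Clec4f and Cd5l. Those of Timd4, Csf1r, Vsig4 and C1qb are large in insulin glargine replicates 2 and 3. The points share arrays and their normalization, and deviations in a group of 3 sum to 0, so the correlations are a description only.

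**Figure D3:**
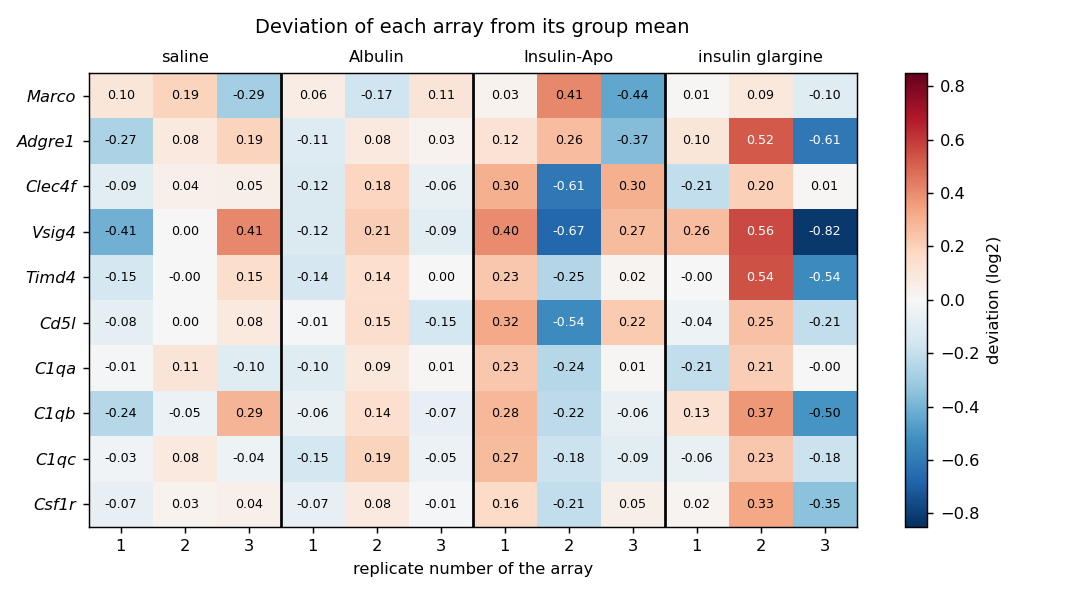
Deviation (log2) of each array from the mean of its group, for the 10 markers in rows and the 12 arrays in columns, with blue for values under the mean and red for values over it. The column of Insulin-Apo replicate 2 is blue for 8 markers and red for Marco (0.41) and Adgre1 (0.26), and that of insulin glargine replicate 3 is blue down to -0.82 for Vsig4.

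Other genes linked to Kupffer cells included the haemoglobin receptor Cd163, the folate receptor Folr2 and the lectin Fcna. Of 14 measured, limma called 1 against saline after Albulin (2.41% of all probe sets), 0 after Insulin-Apo (2.14%) and 0 after insulin glargine (4.84%). At an unadjusted p under 0.05 it gave 3 (18.1% of all), 3 (17.4%) and 2 (22.5%). The F test called 3 of 14, Slc40a1, Il18bp and Hmox1, beside 13.3% of all. The median differences of the 14 genes from saline were 0.10, 0.06 and -0.03. The gene called after Albulin was Hmox1, which encodes the haem-degrading enzyme haem oxygenase 1 and is not restricted to macrophages. It rose after Albulin from 10.14, 9.88 and 10.09 to 11.41, 10.66 and 11.10, by 1.02 (standard error 0.18, adjusted p = 0.00928), a call lost in 3 of 20 alternatives, among them the fits without saline replicate 2 and without Albulin replicate 3. Slc40a1, the iron exporter ferroportin, had a difference of -0.69 between insulin glargine and saline that was not called.

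Genes shared by macrophages of many tissues had mostly positive differences from saline after both fusion proteins. After Insulin-Apo all 15 had positive differences with a median of 0.38, and 3 were called (2.14% of all probe sets), namely Lyz2, Cybb and Ptprc, with 8 at an unadjusted p under 0.05 (17.4% of all). After Albulin 14 of 15 were positive with a median of 0.29, and 0 were called (7 at an unadjusted p under 0.05, limma, beside 18.1% of all). After insulin glargine the median was -0.11, with 0 called (4 at an unadjusted p under 0.05, all lower, beside 22.5% of all in either direction). Lyz2, which encodes lysozyme, was 11.10, 11.21 and 11.29 after saline and 11.95, 11.89 and 11.67 after Insulin-Apo, a rise of 0.63 (standard error 0.09, adjusted p = 0.00449) that was lost in the fit of all 12 arrays only. Cybb, a subunit of the phagocyte oxidase, also rose by 0.63 (standard error 0.12, adjusted p = 0.019), and Ptprc, the leukocyte antigen CD45, by 0.44 (standard error 0.09, adjusted p = 0.0254), with these calls lost in 8 and 13 of 20 alternatives at rises of 0.54 to 0.64 and 0.38 to 0.46. For Cybb they were lost without saline replicate 1 or 2 or Insulin-Apo replicate 1 or 2, and for Ptprc without any 1 array other than Insulin-Apo replicate 3. Between insulin glargine and Insulin-Apo, 14 of 15 differences were negative with a median of -0.62, and 5 were called, all lower after insulin glargine (Cd68, Lyz2, Aif1, Cybb and Ptprc), beside 4.84% of all probe sets called. The call of Cd68, a lysosomal glycoprotein, was lost without Insulin-Apo replicate 1 or 2. Lyz2 fell by 1.10 in that comparison and Aif1, an actin-binding macrophage protein, by 0.62, in all 22 alternatives. Between insulin glargine and Albulin, all 15 differences were also negative, with a median of -0.45. There 2 were called lower after insulin glargine, Lyz2 and Ptprc, beside 4.35% of all probe sets called. These calls were lost in 5 and 14 of 22 alternatives.

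Of 17 further scavenger and engulfment genes, 2 rose after Insulin-Apo (2.14% of all probe sets were called) and 1 after Albulin (2.41%), with median differences from saline of -0.01 and 0.04. Msr1, the class A scavenger receptor related to Marco, was 9.28, 9.53 and 10.02 after saline and 10.67, 10.61 and 10.40 after Insulin-Apo. The 3 Insulin-Apo arrays lay above all saline arrays, and the rise of 0.95 (standard error 0.15, adjusted p = 0.0085) held in all 20 alternatives. After Albulin Msr1 was 10.27, 10.34 and 10.16, and after insulin glargine 9.51, 9.98 and 9.38. Gas6, a secreted ligand that bridges dying cells to the receptors Mertk, Axl and Tyro3, was 10.05, 9.95 and 9.99 after saline and 10.95, 11.67 and 11.10 after Insulin-Apo. It rose by 1.24 (standard error 0.18, adjusted p = 0.00576) after Insulin-Apo in all 20 alternatives and by 1.01 (standard error 0.18, adjusted p = 0.0127) after Albulin, a call lost without saline replicate 1, 2 or 3 or Albulin replicate 1 or 2 at rises of 0.83 to 1.05. Both genes were lower after insulin glargine than after Insulin-Apo, Gas6 by a difference of -1.46 and Msr1 by -0.94, the latter lost without Insulin-Apo replicate 1 or 2 or insulin glargine replicate 1 or 3, at -0.91 to -0.82. Clec7a, the receptor dectin 1 for fungal glucans, was lower in the same comparison by -0.87, a call lost in 10 of 22 alternatives, 6 of them with 1 array left out, at -0.89 to -0.71. Between insulin glargine and Albulin, 1 of 17 was called, beside 4.35% of all. It was Gas6, lower after insulin glargine at -1.23, a call that held in all 22 alternatives.

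Among transcription factors of macrophages, Id3 and Spic rose after Insulin-Apo by more than 1 on the log2 scale. Of 11 measured, 3 rose against saline, beside 2.14% of all probe sets called, with a median of 0.17. Id3, a helix-loop-helix factor needed for Kupffer cell identity, was 8.84, 9.28 and 8.71 after saline and 10.71, 10.50 and 10.02 after Insulin-Apo. It was 9.75, 9.99 and 9.56 after Albulin and 9.54, 9.22 and 9.33 after insulin glargine. The Insulin-Apo arrays lay above all others, and the rise of 1.47 (standard error 0.19, adjusted p = 0.00301) held in all 20 alternatives. Spic, a factor of macrophages that recycle iron from red cells, was 7.46, 7.35 and 7.80 after saline and 8.44, 9.15 and 8.26 after Insulin-Apo, a rise of 1.08 (standard error 0.19, adjusted p = 0.0131) that was lost in 3 of 20 alternatives, among them the fits without saline replicate 1 and without saline replicate 2. Spi1, which encodes PU.1, rose by 0.47 (standard error 0.09, adjusted p = 0.0165) after Insulin-Apo and 0.43 (standard error 0.09, adjusted p = 0.0191) after Albulin, calls lost in 8 and 10 of 20 alternatives at rises of 0.40 to 0.49 and 0.37 to 0.48, among them 4 and 7 fits without 1 array. After insulin glargine 0 of 11 were called against saline (5 at an unadjusted p under 0.05, limma, beside 22.5% of all). Against Insulin-Apo, Spic, Id3, Zeb2 and Tfec were called lower after insulin glargine, at -1.26, -1.05, -0.63 and -0.78, or 4 of 11 beside 4.84% of all. The call of Spic was lost without insulin glargine replicate 1 or 3, and that of Id3 without Insulin-Apo replicate 1 or 2 or insulin glargine replicate 2. Against Albulin, Zeb2 and Tfec were also called lower after insulin glargine, at -0.50 and -0.80, or 2 of 11 beside 4.35% of all. That call of Zeb2 was lost in 14 of 22 alternatives.

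A list of ligands and signalling partners of the Csf1r product also held Csf2 and the receptor genes Csf2ra and Csf2rb. Of 11 measured, 1 rose after Albulin (2.41% of all probe sets were called), 0 were called after Insulin-Apo (limma, with 2 at an unadjusted p under 0.05, beside 17.4% of all), and 2 rose and 1 fell after insulin glargine (4.84% of all called), with median differences from saline of 0.01, 0.07 and 0.03. Csf2rb, the shared receptor chain of interleukin 3, interleukin 5 and granulocyte-macrophage factor, rose by 0.67 (standard error 0.10, adjusted p = 0.00401) after Albulin, and its rise after insulin glargine was lost in 13 of 22 alternatives. Pik3r1, a regulatory subunit of phosphoinositide 3-kinase that also serves the insulin receptor in hepatocytes, rose by 0.81 (standard error 0.10, adjusted p = 0.000273) after insulin glargine. It was 12.02, 12.16 and 11.92 after insulin glargine and 10.75 to 11.38 in the other 9 arrays. Ptpn6, a phosphatase of blood cells, fell after insulin glargine with a difference of -0.38.

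A list of 15 complement genes held components of the classical pathway together with complement receptors and C1q-binding proteins. Of these, 0 were called after Albulin or Insulin-Apo against saline (3 and 6 at an unadjusted p under 0.05, limma, beside 18.1% and 17.4% of all probe sets). The median differences were 0.02 and 0.05. After insulin glargine 1 rose and 1 fell, both of them receptors, beside 4.84% of all called, with a median of -0.18. C3ar1, the receptor for the fragment C3a on myeloid cells, was 9.15, 9.17 and 9.35 after saline and 8.28, 8.62 and 7.85 after insulin glargine, a difference of -0.97 (standard error 0.15, adjusted p = 0.00137). Cd93, a receptor of endothelial and myeloid cells once described as a C1q receptor, was 9.33, 9.41 and 9.51 after saline and 10.40, 10.44 and 10.42 after insulin glargine, a rise of 1.00 (standard error 0.08, adjusted p = 1.7e-05).

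Genes of macrophage activation had differences from saline of -0.30 to 1.01 after Albulin, -0.13 to 1.29 after Insulin-Apo and -0.89 to 2.77 after insulin glargine. Of 22 tested, 2 rose after Insulin-Apo (2.14% of all probe sets were called), 0 were called after Albulin, and 3 rose and 1 fell after insulin glargine (4.84%). At an unadjusted p under 0.05, limma gave 11 after Insulin-Apo, all higher (17.4% of all in either direction), and 5 after Albulin (18.1%). After insulin glargine it gave 5 higher and 2 lower (22.5%). The median differences from saline were 0.26, 0.08 and -0.04. The mean level of the list was highest in Insulin-Apo replicate 2, at 8.05, against 7.74 and 7.69 in Insulin-Apo replicates 1 and 3. Cd14, the co-receptor for lipopolysaccharide that hepatocytes also express, was 7.93, 7.86 and 8.09 after saline and 8.71, 9.03 and 8.43 after Insulin-Apo. It was 8.56, 8.48 and 8.25 after Albulin and 10.69, 10.96 and 10.55 after insulin glargine. The insulin glargine arrays stood far above all others, with a rise of 2.77 (standard error 0.15, adjusted p = 1.48e-06), and the rise after Insulin-Apo was 0.76 (standard error 0.14, adjusted p = 0.0139), lost without saline replicate 1 or 2 or Insulin-Apo replicate 1 at rises of 0.71 to 0.77. Ly96, which encodes the lipopolysaccharide-binding protein MD-2, rose after Insulin-Apo by 0.65 (standard error 0.12, adjusted p = 0.0156), lost in the fit of all 12 arrays and without saline replicate 1 or 2 or Insulin-Apo replicate 2, at rises of 0.55 to 0.65. Il1b, the cytokine interleukin 1 beta, was 8.39, 9.61 and 8.60 after Insulin-Apo and 7.42, 7.94 and 7.43 after Albulin. B called it lower after Albulin, at -1.27 (standard error 0.26), but its adjusted p was 0.0822 (limma). Over 20 alternatives the adjusted p was 0.0516 to 0.232, never under 0.05. The call was lost in 8 of them, 5 of these without a saline array or Albulin replicate 1 or 3. Il1rn, the antagonist of the interleukin 1 receptor, fell after insulin glargine by 0.89 (standard error 0.11, adjusted p = 0.000353). Il10, an inhibitory cytokine, rose by 1.22 and Clec4d, a myeloid lectin, by 0.42, the latter lost in 11 of 22 alternatives, among them those without any saline, Albulin or insulin glargine array. The plot of other macrophage genes shows 8 of the genes named here.

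**Figure D4:**
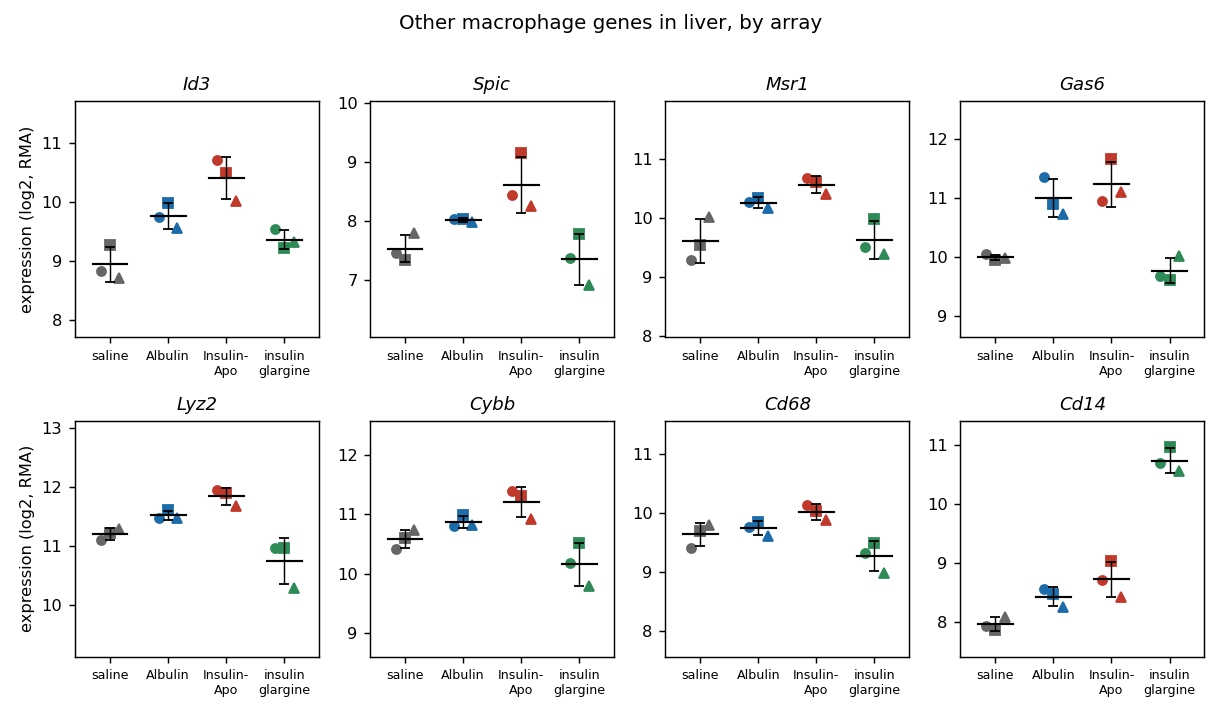
Expression (log2, RMA) of 8 other macrophage genes in the 4 groups, drawn with the symbols of the marker plot (circles, squares and triangles for replicates 1, 2 and 3, lines for means and bars for SD, n = 3), each panel with the same log2 span. Id3 of Insulin-Apo lies at 10.02 to 10.71 above the other groups, and Cd14 of insulin glargine at 10.55 to 10.96.

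Markers of other cells moved in the same comparisons. The mean level of 7 monocyte markers was 6.83 to 6.88 after saline, 7.20 to 7.36 after Albulin, 7.14 to 7.23 after Insulin-Apo and 6.74 to 6.96 after insulin glargine. That of 11 neutrophil markers was 6.84 to 7.06, 7.35 to 7.55, 7.18 to 7.36 and 6.71 to 6.94. Both lists were higher in every array of Albulin and Insulin-Apo than in every array of saline and insulin glargine, with the highest mean after Albulin. Of the neutrophil markers, 4 of 11 rose after Albulin, beside 2.41% of all called (S100a8, S100a9, Cxcr2 and Mmp8, of which S100a8 and Cxcr2 were each lost without 1 of 4 arrays) and 0 after Insulin-Apo (limma, with 7 at an unadjusted p under 0.05, beside 17.4% of all). Of the 7 monocyte markers, F13a1 and Chil3 rose after Albulin, by 0.60 and 0.84 (2.41% of all probe sets were called), and Chil3 after Insulin-Apo by 0.81 (2.14%). Chil3 was 5.69, 5.70 and 5.46 after saline and 6.26, 6.56 and 6.47 after Insulin-Apo. Between insulin glargine and Albulin, 7 of 11 neutrophil and 3 of 7 monocyte markers were called lower after insulin glargine, beside 4.35% of all. Between insulin glargine and Insulin-Apo, 4 of 11 and 2 of 7 were called lower, beside 4.84%. The call of Mmp9 against Albulin was lost in 15 of 22 alternatives, and those of Cxcr2 and S100a8 against Insulin-Apo in 13 each. The mean level of 10 sinusoidal endothelial markers was 10.27 to 10.67 after saline, 10.61 to 10.76 after Albulin, 10.62 to 10.73 after Insulin-Apo and 10.34 to 10.65 after insulin glargine, with 0 called against saline in any of these (6, 4 and 4 at an unadjusted p under 0.05, limma, beside 18.1%, 17.4% and 22.5% of all). The part of monocytes, neutrophils and endothelial cells in the values of Marco, Lyz2, Cybb, Msr1 and the other genes above was not tested.

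Outside all lists, the 5 genes whose levels followed Marco most closely over the 12 arrays, among 20313 probe sets with 1 symbol, were Sinhcaf, Ccdc167, Gmppa, Tlr1 and Ms4a7, with Pearson correlations of 0.942, 0.939, 0.938, 0.935 and 0.931. These are the highest of many values and a description only, since the points share groups and arrays. Tlr1, a toll-like receptor for bacterial lipopeptides, had mean levels of 7.04 after saline, 7.14 after Albulin, 7.87 after Insulin-Apo and 6.49 after insulin glargine. Ms4a7, a membrane protein of macrophages, had mean levels of 6.27, 6.16, 6.64 and 5.84 in the same order. Each of the 5 genes had its highest mean after Insulin-Apo and its lowest after insulin glargine, as did Marco. They were chosen for following Marco, so this shared order is largely a result of that choice.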

How the data were processed

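Liver RNA was hybridized to 12 Affymetrix Mouse Gene 1.0 ST arrays. Background correction and normalization by the authors used RMA, and each deposited value is the log2 expression of 1 of 28213 probe sets. The sources used here do not give the RMA version, the annotation build or whether all arrays entered 1 normalization. Groups came from the sample labels. A probe set was kept with values over 5 in 2 or more arrays of the same group, which left 25989 in the fit of 9 arrays without insulin glargine and 26027 in that of all 12. limma 3.58.1 in R 4.3.3 compared Albulin, Insulin-Apo and saline in the first fit, and insulin glargine with each of them, by a moderated F test too (adjusted p under 0.05), in the second. Calls needed B over 0 at a prior proportion of 0.01. The markers, 11 marker lists and 7 gene lists were chosen with earlier results of these data known. Genes of a list were eligible to be named where called in any comparison or, under 3 such genes, by the smallest F test p. A gene with several probe sets was read from that with the highest mean. Some listed genes were not analysed here, and counts are of the measured members. Alternatives covered the filter (none, or values over 6), median centring, repeated quantile normalization, a replicate block, an intensity trend, array weights, the call rule, the mean of probe sets, the arrays in the fit and each array left out. The fits were tested on simulated data. Sequences came from RefSeq, and figures were drawn with matplotlib 3.10.9.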

Additional observations from a re-analysis of the deposited data

How the results depend on the processing

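Leaving out 1 array at a time, the number of the 10 markers called was 0 to 2 for Insulin-Apo against saline, 0 to 2 for Albulin against Insulin-Apo, 0 to 1 for insulin glargine against Albulin, 1 to 2 for insulin glargine against Insulin-Apo and 1 to 2 for the F test over 4 treatments. The 0 calls of Albulin and of insulin glargine against saline did not move under any alternative run. For Insulin-Apo against saline the count of 1 fell to 0 with repeated quantile normalization and with only the arrays of the 2 groups. For Albulin against Insulin-Apo it was 1, Marco, in the fit of all 12 arrays. When calls needed only an adjusted p under 0.05, it was 1 for insulin glargine against Albulin and 2 against Insulin-Apo. For the F test it was 1 without the filter, with arrays centred on their medians and with repeated quantile normalization. The replicate numbers did not pair the arrays (18 same-number pairs with correlations of deviations from -0.268 to 0.149, and 3 of 12 arrays correlating best with their own number), and with the number as a replicate block 2 markers, Adgre1 and Marco, were called for insulin glargine against Insulin-Apo, and no other count moved.

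Of 60 marker differences, 27 changed sign in at least 1 alternative. None of these was called, the largest in size was 0.36, and the largest value with the other sign was 0.24 in size. With array weights the sign changed for Cd5l in Albulin against Insulin-Apo (-0.031), Vsig4 (0.043) and C1qa (-0.0045) in insulin glargine against saline, and Clec4f (-0.0096) and Timd4 (0.11) in insulin glargine against Albulin. With quantile normalization it changed for C1qa in Albulin (0.0086) and insulin glargine (0.0003) against Insulin-Apo. With 1 array left out, differences of Albulin from saline were -0.092 to 0.14 for Adgre1, -0.061 to 0.18 for Marco, -0.14 to 0.010 for Clec4f and -0.0027 to 0.075 for Csf1r. Those of Insulin-Apo from saline were -0.37 to 0.088 for Clec4f, -0.098 to 0.44 for Vsig4, -0.017 to 0.41 for Cd5l and -0.049 to 0.19 for C1qa. Those of Albulin from Insulin-Apo were -0.14 to 0.32 for Clec4f, -0.095 to 0.44 for Vsig4, -0.24 to 0.19 for Cd5l, -0.13 to 0.10 for C1qa and -0.025 to 0.22 for C1qb. Those of insulin glargine from saline were -0.14 to 0.061 for Clec4f, -0.54 to 0.15 for Vsig4, -0.13 to 0.41 for Timd4, -0.072 to 0.14 for C1qa, -0.019 to 0.42 for C1qb and -0.34 to 0.0015 for Csf1r. Those of insulin glargine from Albulin were -0.091 to 0.11 for Clec4f, -0.33 to 0.21 for Timd4 and -0.13 to 0.086 for C1qa. Those of insulin glargine from Insulin-Apo were -0.13 to 0.32 for Clec4f, -0.70 to 0.045 for Vsig4, -0.52 to 0.018 for Timd4, -0.15 to 0.084 for C1qa and -0.41 to 0.022 for C1qb. The cause of these changes was not tested. Of 1888 values for called genes of the other lists, 310 lost the call and 0 changed sign; these alternatives were added after their calls were seen. With 3 arrays a group, the number of arrays limits precision.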

Other observations

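Lists of cells that lie further from macrophages were counted in the same way. They held 9 hepatocyte, 8 stellate cell, 5 cholangiocyte, 8 dendritic cell, 4 B cell, 10 T cell and NK cell and 2 erythroid markers. Against saline, limma called 0 of these after Albulin (2.41% of all probe sets), Insulin-Apo (2.14%) or insulin glargine (4.84%). These counts were not tested against the background. After Albulin, where 18.1% of all probe sets had an unadjusted p under 0.05, 2 hepatocyte, 1 dendritic cell, 2 B cell and 1 erythroid marker did, and 0 of the other 3 lists. After Insulin-Apo (17.4% of all) it was 2 hepatocyte and 1 stellate cell marker, and after insulin glargine (22.5% of all) 1 stellate cell, 1 cholangiocyte, 1 B cell and 2 T cell and NK cell markers. Between insulin glargine and Albulin, 2 of 4 B cell markers were called, beside 4.35% of all. The B cell receptor gene Cd79b and the B cell gene Ms4a1 were lower after insulin glargine, by -0.74 and -0.94. Between insulin glargine and Insulin-Apo, 1 of 10 T cell and NK cell markers and 1 of 5 cholangiocyte markers were called, beside 4.84% of all. The granule gene Nkg7 was lower by -0.51 and the keratin gene Krt19 higher by 0.52 after insulin glargine. The endothelial receptor Kdr, 1 of 10 sinusoidal endothelial markers, was lower after insulin glargine than after Albulin or Insulin-Apo, by -0.66 and -0.53. The calls of Ms4a1, Nkg7, Krt19 and of Kdr against Insulin-Apo were lost in 6, 6, 11 and 4 of 22 alternatives, of which 4, 5, 9 and 3 left out 1 array.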
